A study of Mus musculus with 27 samples.

Results

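The interferon-response genes described here were chosen by name and by level from the RNA sequencing of mouse muscle after volumetric muscle loss, the surgical removal of a block of muscle. The names taken were those of protein-coding genes that begin with Ifit, Oas, Isg or Irgm, those of the numbered Ifi, Irf and Gbp genes, and a list that includes Ifih1, Stat2, Mx1, Mx2, Rsad2, Usp18, Bst2, Iigp1 and Igtp. A chosen gene also had to reach an FPKM (sequenced fragments of a gene, scaled to its length and to a total for the sample, the unit of all levels below) of at least 0.5 in 5 or more of the 27 samples. Of the 54532 genes in the table, 84 matched by name and 78 of these were protein coding. The level chose 59 of the 78, and these 59 are called members. The level was read across all groups, so a gene that reached it through injured muscle alone was chosen in a way that favors a difference from uninjured muscle. 39 members reached it in all 5 uninjured samples, 11 in 1 to 4 of them and 9 in none (Ifitm5, Oas1c, Oas1g, Oas3, Oasl1, Mx1, Ifi205, Ifi206 and Ifi209).

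The other 19 genes fell short of that level and were not tested. Just inside it stood Oas1c with 5 samples at 0.5 or above, Oas3 and Ifi206 with 6 each, and Ifi44 with 7. Just outside it stood Ifi213 with 4 samples and a highest level of 1.04 FPKM, Gbp8 with 3 samples and a highest level of 1.31 FPKM, Gbp10 with 3 samples and a highest level of 1.18 FPKM, and Ifit1bl1 with 3 samples and a highest level of 0.95 FPKM. Of the 19, 10 reached 0.5 in no sample, and Oas1d, Oas1e, Oas1f and Ifitm7 were listed at 0 in every sample.

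The mice were 8-week-old C57BL/6 males, and the injury took out 40% of the tibialis anterior. Muscle was collected 3, 7, 14 and 21 days after it (groups D3, D7, D14 and D21, with 5, 6, 6 and 5 samples) and from uninjured C57BL/6 mice (Control, 5 samples), whose age the labels do not give. The series record calls the injury unilateral and the methods call it bilateral. The counted reads that the FPKM values imply ran from 14376395 to 24436763 per sample, with a median of 17398586. Each sample was also placed against the mean of every group over the 14630 tested genes, its own group taken without it. 9 samples lay nearest another group: D3 replicate 5 lay nearest D7, D7 replicate 3 nearest Control, D7 replicate 5 nearest D3, D7 replicate 6 nearest D21, D14 replicate 1 nearest D7, D14 replicates 3 and 6 nearest D21, and D21 replicates 3 and 5 nearest D14. Whether labels were exchanged between samples was not tested.

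Interferons are cytokines that cells release on sensing foreign or misplaced nucleic acid, or, for interferon gamma, that NK and T cells release on activation. Type I interferons act through Jak1 and Tyk2 on a factor that includes Stat2 and Irf9 and binds the interferon-stimulated response element (ISRE), and interferon gamma acts through Jak1 and Jak2 and the gamma-activated site (GAS). The genes switched on this way include the antiviral IFIT, IFITM, Oas and Mx proteins, the ubiquitin-like Isg15, and the GTPases of the Gbp and immunity-related families. Injured muscle takes in large numbers of monocytes and macrophages within days, and these cells carry much of the interferon pathway.

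The labelled tissue was checked against 8 muscle fibre genes, all of which reached the level for a test. Their summed level was 84480 ± 6995 FPKM (mean ± SD, n = 5) in Control and 35960 ± 12140 FPKM (n = 5) at D3, with 7 of the 8 lower at D3 and Acta1 the most abundant. Macrophage and monocyte markers moved the other way: 9 of 9 were higher at D3, Lyz2 was the most abundant, and their summed level went from 21.7 ± 3.61 FPKM in Control to 1388 ± 751 at D3, 527 ± 756 at D7 (n = 6; 223 on average without D7 replicate 5), 81.9 ± 25.3 at D14 (n = 6) and 46.3 ± 10.1 at D21 (n = 5). The 7 neutrophil markers summed to 2.77 ± 1.49 FPKM in Control and 27.8 ± 6.84 FPKM at D3, with 3 of 3 tested markers higher and S100a8 the most abundant. NK cell markers summed to 0.682 ± 0.686 FPKM in Control (0.412 on average without Control replicate 4) and 3.52 ± 4 FPKM at D3 (1.75 without D3 replicate 5), with Gzma the most abundant and 0 of 2 tested markers called. T cell markers (Cd3e the most abundant) summed to 0.339 ± 0.184 and 1.42 ± 1.36 FPKM (0.811 without D3 replicate 5), and none of the 6 reached the level needed for a test. Fibro-adipogenic markers (Col1a1 the most abundant) also rose, from 117 ± 15.6 FPKM in Control to 436 ± 100.1 at D3 and 438 ± 158 at D7, with 3 of 4 called higher at D3, and dendritic cell markers (Itgax the most abundant) went from 1.53 ± 0.136 FPKM in Control to 5.13 ± 1.39 at D3, with 1 of 3 tested called higher. No marker of these lists was at 0 in every sample. In tissue samples such as these, fewer cells of a type and less RNA per cell cannot be told apart, and the part that the mix of cells plays in the changes below was not tested.

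Differences were tested with limma on log2(FPKM + 1) of all 14630 tested genes, with p-values adjusted over all of them, and a gene is called at an adjusted p under 0.05. The added 1 pulls the fold changes of low genes towards 0. Every injured group was compared with the same 5 uninjured samples, so the 4 comparisons share them. The sample total behind the deposited FPKM values was not that of the counted reads: it was 0.782 times that number on average in Control, 1.25 times at D3, 1.18 times at D7, 1.04 times at D14 and 0.897 times at D21. With the FPKM values as deposited the median log2 fold change of all tested genes lay within 0.0282 of 0 against Control. Rescaling every sample to a common sum (TPM) moved that median to 0.507 at D3, 0.476 at D7, 0.292 at D14 and 0.116 at D21, and scaling to each sample's own counted reads moved it to 0.404, 0.361, 0.246 and 0.117. Quantile normalization moved it to -0.117 at D3. The fold changes below are from the deposited scale, and with these scalings each is read against its median.

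At D3 most interferon-response genes were higher than in uninjured muscle, though not in every role. Of the 59 members, 36 were called higher, against 23.4% of all tested genes, and 0 were called lower, against 19.8%. The 36 included Irf7, Irf8, Oas1a, Isg15, Bst2, Ifitm3, 7 of 7 p200 genes and Ifi27l2a, while 5 of 6 guanylate-binding proteins and 4 of 5 immunity-related GTPases were not called. No difference between roles was tested, and roles also differ in how their genes met the level: 1 of the 7 p200 genes met it in all 5 uninjured samples, against 5 of the 6 guanylate-binding proteins and 4 of the 5 GTPases. The median log2 fold change was 0.69 over the members and 0.01 over all tested genes. Among the 39 members that uninjured muscle alone would have let in, 21 (53.8%) were called higher, and among the other 20 it was 15 (75.0%). Without D3 replicate 5 and D7 replicate 5 the count was 30 higher (against 23.8% of all tested genes) and 0 lower, and without all 9 samples that lay nearest another group it was 34 higher (against 26.5%) and 1 lower, an omission chosen after seeing the data.

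**Figure D1:**
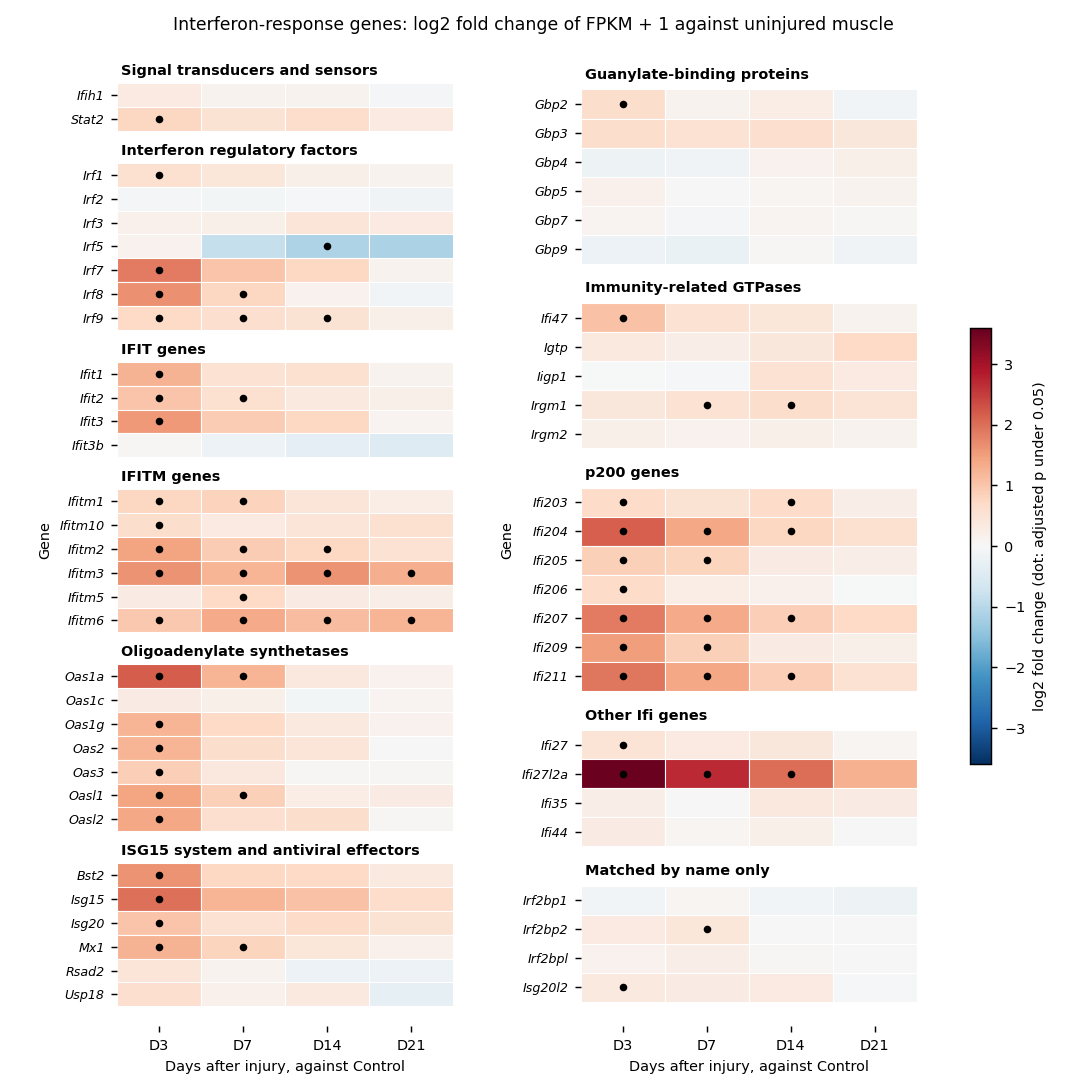
Log2 fold change of FPKM + 1 of 58 members (1 line each, ordered by role) at D3, D7, D14 and D21 against Control, with color running from blue (lower) to red (higher) and a dot where the adjusted p is under 0.05. Of these, 35 carry a dot at D3, 19 at D7, 11 at D14 and 2 at D21.

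The interferons themselves were at or near the floor of the data. None of 10 interferon genes reached the level needed for a test, and Ifnb1 was listed at 0 in all 27 samples. Ifng, the gene of interferon gamma, was listed at 0 in all 5 Control samples and measured 0, 0, 0.234, 0.0339 and 0.399 FPKM at D3, on 20 counted reads in all. It was above 0 in 3 of 5 D3 samples, 1 of 6 D7 samples, 1 of 6 D14 samples and 3 of 5 D21 samples, and was not tested. An output too low to give a counted read would not show at this depth.

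Most tested receptors and sensors of the pathway rose at D3, and its kinases did not move together. Of 5 tested receptor genes 4 rose and 0 fell. Over all tested genes 23.4% were called higher at D3 and 19.8% lower, and the counts of each list are read against these shares. Il10rb, a receptor chain shared by lambda interferons and related cytokines, measured 1.99, 2.37, 1.88, 2.43 and 0.951 FPKM in Control and 8.91, 5.91, 10.1, 9.72 and 5.54 FPKM at D3. All 5 D3 samples lay above every Control sample, with a log2 fold change of 1.62 ± 0.26 (± SE) and an adjusted p of 3.29e-05. Of the 3 kinases Tyk2 rose and Jak1 and Jak2 fell. Jak2, the kinase of the interferon gamma receptor among others, measured 8.73, 11.8, 7.9, 10.7 and 7.65 FPKM in Control and 5.87, 4.24, 5.09, 4.49 and 4.52 FPKM at D3. Its 5 D3 samples all lay below the Control samples (log2 fold change -0.81 ± 0.21, adjusted p = 0.0027), but on the TPM scale the change was -0.10 with an adjusted p of 0.735 and on the own total of reads it was -0.24 with an adjusted p of 0.304.

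Among negative regulators, 3 of 5 rose (Socs1, Socs3 and Ptpn6) and 0 fell. Ptpn6, a phosphatase of blood cells that damps cytokine signaling, went from 0.402, 0.664, 0.182, 0.232 and 0.756 FPKM in Control to 11.7, 9.51, 17.7, 22.5 and 6.54 FPKM at D3, with no overlap (log2 fold change 3.24 ± 0.43, adjusted p = 3.56e-06). Of 11 tested sensors and adaptors 9 rose and Mavs fell. Zbp1, a sensor of nucleic acid that can set off cell death, measured 0.149, 0.181, 0.0725, 0.322 and 0.31 FPKM in Control and 5.01, 1.16, 2.76, 4.8 and 6.34 FPKM at D3, again with no overlap (log2 fold change 1.94 ± 0.33, adjusted p = 5.02e-05). No Control sample of Zbp1 reached 0.5 FPKM, so injured muscle alone let it in, and its lack of overlap partly follows from that choice. The counts of the pathway lists were not split by how their genes met the level. Interferon targets that the name rule does not take in also rose: 14 of 21 tested were called higher and 0 lower, against 23.4% and 19.8% of all tested genes. Slfn2, a schlafen family gene, showed the widest change of these, from 2.3, 0.978, 2.66, 1.07 and 0.411 FPKM in Control to 17.8, 8.82, 20.5, 24.9 and 12.9 FPKM at D3 (log2 fold change 2.86 ± 0.41, adjusted p = 7.91e-06). All 10 tested genes of antigen processing rose. H2-D1, a class I heavy chain that presents peptides, measured 57.6, 51.3, 51.1, 47.7 and 59.7 FPKM in Control and 136, 90.6, 178, 176 and 177 FPKM at D3 (log2 fold change 1.45 ± 0.28, adjusted p = 0.00018).

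Among signal transducers and sensors, Stat2 rose at D3 and Ifih1, a sensor of double-stranded RNA, was not called. Stat2 (ENSMUSG00000040033, chr10:128270559-128292849, plus strand) is part of the factor that binds the ISRE. Stat2 measured 1.34, 1.73, 1.94, 1.56 and 1.57 FPKM in the 5 Control samples and 3.38, 1.94, 2.92, 3.67 and 6.42 FPKM at D3. D3 replicate 5 was the highest and D3 replicate 2 sat at the upper edge of the Control range, so 4 of 5 D3 samples lay above it (log2 fold change 0.76 ± 0.26, adjusted p = 0.0196). At D7 Stat2 ran at 1.47 at the lowest, 2.89 at the median and 4.4 at the highest FPKM, and at D14 at 1.86 at the lowest, 3.33 at the median and 4.94 at the highest. By D21 Stat2 measured 1.62, 2.98, 1.56, 1.24 and 5.44 FPKM, with replicate 5 well above the other 4 and 2 of 5 samples above the Control range (log2 fold change 0.33 ± 0.26, adjusted p = 0.515, or 0.08 with an adjusted p of 0.917 without replicate 5). Without D3 replicate 5 the D3 change of Stat2 was 0.58 with an adjusted p of 0.0748, and with quantile normalization it was 0.59 with an adjusted p of 0.0588.

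Interferon regulatory factors divided into those that rose early and those that did not: Irf1, Irf7, Irf8 and Irf9 were called higher at D3, and Irf2, Irf3 and Irf5 were not called. Irf7 (ENSMUSG00000025498, chr7:141262706-141266481, minus strand) drives the interferon alpha genes and is itself switched on by interferon. Irf7 measured 2.58, 2.14, 3.23, 2.39 and 2.62 FPKM in Control and 12.4, 4.81, 11.7, 13.4 and 24.7 FPKM at D3. Every D3 sample lay above the Control range, with replicate 5 the highest and replicate 2 the lowest (log2 fold change 1.86 ± 0.42, adjusted p = 0.000878). At D7 Irf7 ran at 2.51 at the lowest, 4.22 at the median and 21.4 at the highest FPKM. The spread at D7 came from replicates 4 and 5, at 21.4 and 15.4 FPKM, while the other 4 samples lay at or below 4.97. Irf7 stood at 2.09 at the lowest, 5.3 at the median and 8.24 at the highest FPKM at D14, and at D21 it measured 3.01, 3.08, 1.96, 2.11 and 4.91 FPKM. By D21, 1 of 5 samples lay above the Control range and 2 below it. Irf8, which directs the development of myeloid cells, had a D3 change of 1.64 ± 0.29 (adjusted p = 7.91e-05), and Irf9 had one of 0.73 ± 0.18 (adjusted p = 0.00168).

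Irf3 (ENSMUSG00000003184, chr7:44997648-45002848, plus strand) is the factor that nucleic acid sensors activate to start interferon production, and it is switched on by phosphorylation more than by its level. Irf3 measured 11.1, 6.77, 10.5, 7.62 and 9.03 FPKM in Control, the highest mean among regulatory factors over all samples, and 8.56, 8.01, 10.1, 11.6 and 13.8 FPKM at D3. The groups overlapped, with 2 of 5 D3 samples above the Control range (log2 fold change 0.19 ± 0.18, adjusted p = 0.439, with a change of 0.09 without D3 replicate 5 and 0.10 without Control replicate 2). It ran at 8.94 at the lowest, 9.84 at the median and 13 at the highest FPKM at D7 and at 9.41 at the lowest, 12.9 at the median and 17 at the highest FPKM at D14. On day 21 Irf3 stood at 11.5, 14.7, 10.8, 7.17 and 14.5 FPKM, 3 of 5 above the Control range. On the TPM scale the D3 change of Irf3 was 0.93 with an adjusted p of 0.00213, and on the own total of reads it was 0.79 with an adjusted p of 0.003.

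Irf5 (ENSMUSG00000029771, chr6:29526625-29541871, plus strand) directs inflammatory cytokine genes in macrophages, and it was the member called lower, at D14. Irf5 measured 21.8, 7.92, 15.1, 10.4 and 15.8 FPKM in Control and 17.5, 14.9, 18.2, 17.1 and 9.97 FPKM at D3. All 5 D3 samples lay within the wide Control range (log2 fold change 0.17 ± 0.40, adjusted p = 0.771, with a change of 0.33 without Control replicate 1 and -0.0069 without Control replicate 2). At D7 Irf5 ran at 2.15 at the lowest, 5.65 at the median and 21.2 at the highest FPKM, with replicates 2 and 5 at 14.3 and 21.2 and the other 4 below the Control range (log2 fold change -0.86 ± 0.39, adjusted p = 0.0896, or 0.0436 without replicate 2 and 0.0204 without replicate 5). Over the 43 other settings the D7 change ran from -1.16 to -0.18, with an adjusted p of up to 0.756. Irf5 stood at 2.93 at the lowest, 5.25 at the median and 11 at the highest FPKM at D14, where 5 of 6 samples lay below the Control range (log2 fold change -1.10 ± 0.39, adjusted p = 0.043). Irf5 at D21 measured 7.65, 3.49, 11.5, 3 and 5.18 FPKM, 4 of 5 below it (log2 fold change -1.14 ± 0.40, adjusted p = 0.109, or 0.0254 with sample quality weights and 0.0155 without the 9 samples nearest another group). The D14 call was lost in 14 of 43 other settings, among them the omission of any 1 of Control replicates 1, 3, 4 and 5 or of D14 replicates 1, 4, 5 and 6, with an adjusted p of up to 0.312 on the TPM scale. The 14 settings include the fits with samples blocked by replicate number, at an adjusted p of 0.0758, and by letter, at 0.0697. The libraries did not keep the strand, and 14.1% of the exon bases of Irf5 also lie in Tnpo3 on the opposite strand, whose mean level was 1.62 FPKM.

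**Figure D2:**
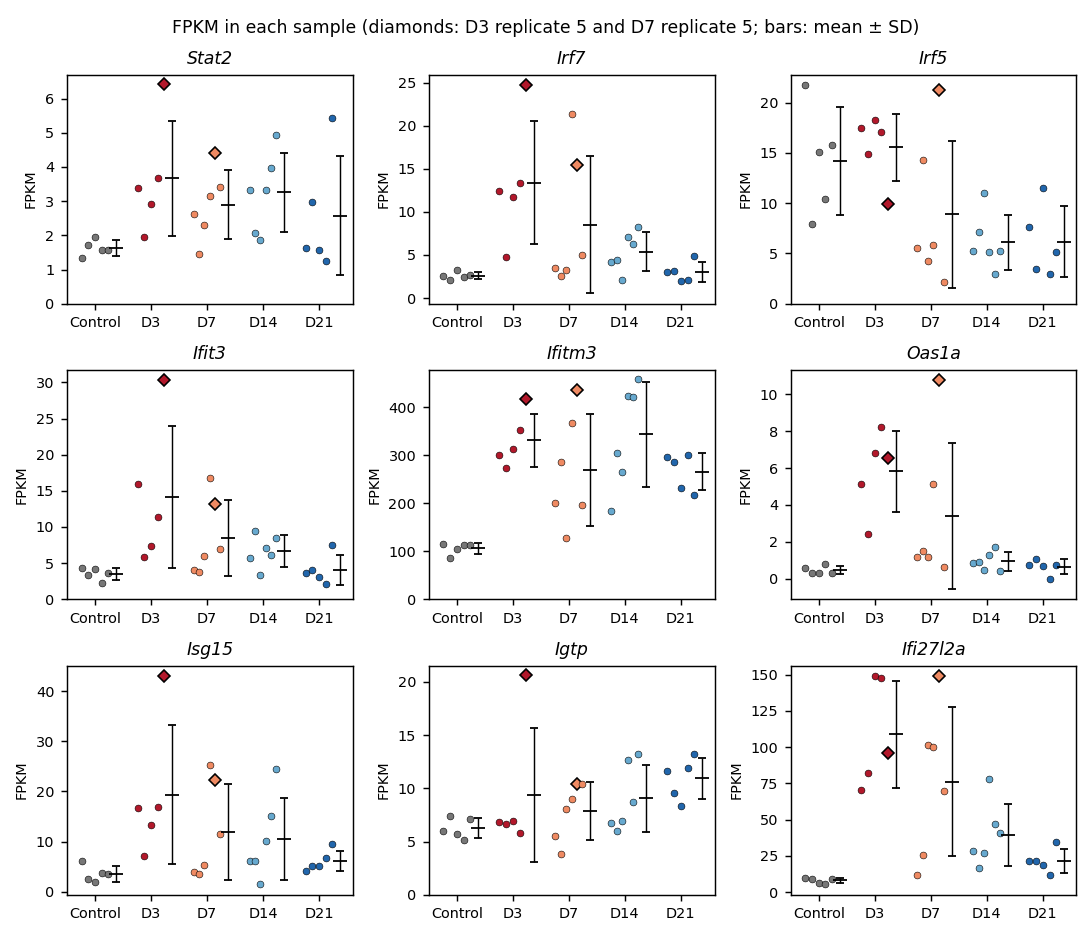
FPKM of 9 members in each of the 27 samples by group, with 1 point per sample, diamonds for replicate 5 of D3 and of D7, and bars for the mean ± SD. Irf7, Oas1a and Isg15 lie above the Control samples in 5 of 5 D3 samples, and Ifitm3 lies above them in every injured sample.

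IFIT genes, whose proteins bind viral RNA and block its translation, rose at D3 in 3 of 4 (Ifit1, Ifit2 and Ifit3), and Ifit3b was not called. Ifit3 (ENSMUSG00000074896, chr19:34583531-34588731, plus strand) encodes a partner of the Ifit1 protein. Ifit3 measured 4.3, 3.33, 4.2, 2.19 and 3.56 FPKM in Control and 15.9, 5.78, 7.38, 11.4 and 30.3 FPKM at D3. The 5 D3 samples all lay above the Control range, with replicate 5 well above the next, replicate 1 (log2 fold change 1.55 ± 0.37, adjusted p = 0.00145). At D7 Ifit3 ran at 3.78 at the lowest, 6.48 at the median and 16.7 at the highest FPKM, with replicates 4 and 5 again the highest, and at D14 it ran at 3.3 at the lowest, 6.56 at the median and 9.42 at the highest. In the D21 samples Ifit3 measured 3.63, 4.09, 3.01, 2.14 and 7.44 FPKM, within the Control range in 3 of 5 samples. Ifit1 had a D3 change of 1.24 ± 0.35 (adjusted p = 0.00527).

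Ifit3b (ENSMUSG00000062488, chr19:34607970-34613401, plus strand) is a mouse copy of Ifit3 with much the same transcript sequence, and 45.0% of its 50-base stretches also occur in another gene, as do 51.2% of those of Ifit3. Ifit3b measured 2.18, 1.89, 2.3, 2.11 and 3.59 FPKM in Control and 3.55, 1.16, 1.99, 2.24 and 4.28 FPKM at D3. Control replicate 5 was the highest of its group, and 3 of 5 D3 samples lay within the Control range (log2 fold change 0.04 ± 0.23, adjusted p = 0.898, with a change of sign without D3 replicate 5, to -0.11). At D7 it ran at 0.757 at the lowest, 2.32 at the median and 3.09 at the highest FPKM and at D14 at 1.1 at the lowest, 1.65 at the median and 2.19 at the highest. Ifit3b had D21 levels of 0.978, 1.39, 2.12, 1.06 and 1.79 FPKM, with 4 of 5 samples below the Control range (log2 fold change -0.47 ± 0.23, adjusted p = 0.254). How reads from shared stretches were assigned between the 2 genes is not stated.

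IFITM genes, small membrane proteins of which several block the entry of viruses, rose in 5 of 6 at D3, 5 at D7, 3 at D14 and 2 at D21, against 23.4%, 15%, 9.02% and 1.74% of all tested genes. Ifitm3 (ENSMUSG00000025492, chr7:141009586-141010770, minus strand) restricts viruses at the membrane of endosomes and had the highest level of all members. Ifitm3 measured 115, 86.7, 105, 112 and 112 FPKM in Control and 300.1, 273, 312, 353 and 417 FPKM at D3. Every D3 sample was far above the Control samples (log2 fold change 1.62 ± 0.26, adjusted p = 3.53e-05). It ran at 128 at the lowest, 243 at the median and 436 at the highest FPKM at D7 and at 184 at the lowest, 364 at the median and 459 at the highest FPKM at D14. Levels of Ifitm3 at D21 were 296, 286, 232, 300.1 and 217 FPKM. All 22 injured samples lay above all 5 Control samples, with changes of 1.22 ± 0.25 at D7 (adjusted p = 0.00124), 1.62 ± 0.25 at D14 (adjusted p = 0.000235) and 1.31 ± 0.26 at D21 (adjusted p = 0.00733). These calls held in each of the 43 other settings tried.

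Ifitm6 (ENSMUSG00000059108, chr7:141015699-141017924, minus strand) is a member of the same family and was at a much lower level, on 21 counted reads over the 5 Control samples. Ifitm6 measured 0.166, 0.449, 0.0942, 0.808 and 0.151 FPKM in Control and 1.32, 1.96, 2.26, 1.5 and 1.04 FPKM at D3. Control replicate 4 was the highest uninjured sample, and the 5 D3 samples lay above it (log2 fold change 0.98 ± 0.32, adjusted p = 0.0147). At D7 Ifitm6 ran at 1.04 at the lowest, 2.25 at the median and 5.36 at the highest FPKM, its highest mean (log2 fold change 1.37 ± 0.30, adjusted p = 0.00207), and at D14 at 0.281 at the lowest, 2.22 at the median and 3.23 at the highest FPKM (log2 fold change 1.11 ± 0.30, adjusted p = 0.012). By D21 Ifitm6 measured 3.01, 3.4, 2.5, 1.76 and 0.495 FPKM, and replicate 5 alone lay within the Control range (log2 fold change 1.21 ± 0.32, adjusted p = 0.033). The D21 call was lost in 12 of 43 other settings, among them the omission of any 1 of Control replicates 1, 2, 3 and 5 or of D21 replicates 1, 2 and 3. Ifitm2 had a D3 change of 1.44 ± 0.27 (adjusted p = 0.000145), and 48.5% of its 50-base stretches also occur in another gene.

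Oligoadenylate synthetases, which answer double-stranded RNA by making the messenger that activates RNase L, rose at D3 in 6 of 7, and Oas1c was not called. Of the 6, Oas1g, Oas3 and Oasl1 reached 0.5 FPKM in no uninjured sample and were let in by injured muscle alone, and Oasl2 alone reached it in all 5. Oas1a (ENSMUSG00000052776, chr5:120896256-120907521, minus strand) is one of the active enzymes. Oas1a measured 0.558, 0.277, 0.316, 0.776 and 0.326 FPKM in Control and 5.14, 2.43, 6.84, 8.24 and 6.53 FPKM at D3. The lowest D3 sample, replicate 2, was still well above the highest Control sample (log2 fold change 2.17 ± 0.37, adjusted p = 6.47e-05). At D7 Oas1a ran at 0.639 at the lowest, 1.34 at the median and 10.8 at the highest FPKM, with replicate 5 the highest and replicate 4 next at 5.16, and 5 of 6 samples lay above the Control range (log2 fold change 1.22 ± 0.36, adjusted p = 0.013, or 0.0658 with only Control and D7 in the fit). It stood at 0.405 at the lowest, 0.876 at the median and 1.73 at the highest FPKM at D14, and at D21 it measured 0.755, 1.08, 0.696, 0 and 0.713 FPKM. By D21, 3 of 5 samples were within the Control range, and replicate 4 was listed at 0. Of the 50-base stretches of Oas1a, 57.6% also occur in another gene, most of them in Oas1g.

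Oasl1 (ENSMUSG00000041827, chr5:114923240-114937915, plus strand) is related to the synthetases and is known to hold down the translation of Irf7. Oasl1 measured 0.345, 0.0223, 0.327, 0.405 and 0.314 FPKM in Control and 2.81, 1.48, 2.33, 2.05 and 3.78 FPKM at D3. No Control sample reached 0.5, and the 5 D3 samples lay well above them (log2 fold change 1.42 ± 0.29, adjusted p = 0.000335). At D7 it ran at 0.385 at the lowest, 0.932 at the median and 5.07 at the highest FPKM, with replicates 5 and 4 the highest, and at D14 at 0.157 at the lowest, 0.384 at the median and 1.5 at the highest FPKM. On day 21 Oasl1 stood at 0.75, 0.518, 0.503, 0.842 and 0.24 FPKM, with 4 of 5 samples above the Control range (log2 fold change 0.29 ± 0.29, adjusted p = 0.618). Oasl2 had a D3 change of 1.38 ± 0.25 (adjusted p = 0.000128).

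The Isg15 system and other antiviral effectors rose at D3 in 4 of 6 (Bst2, Isg15, Isg20 and Mx1). Rsad2 and Usp18, the protease that takes Isg15 off its targets, were not called, though both changes were upward (adjusted p = 0.0721 and 0.0543 in limma). All 6 had an unadjusted p under 0.05 in limma, against 49.6% of all tested genes. Mx1 reached 0.5 FPKM in no uninjured sample and was let in by injured muscle alone, and Isg20 reached it in 4 of 5. Of the 4 effectors that reached it in all 5 uninjured samples, 2 were called. Isg15 (ENSMUSG00000035692, chr4:156199424-156200818, minus strand) encodes a small protein that is joined to others as ubiquitin is. Isg15 measured 6.06, 2.54, 2.03, 3.76 and 3.52 FPKM in Control and 16.6, 7.2, 13.3, 16.8 and 43 FPKM at D3. All 5 D3 samples lay above the Control range, with replicate 5 far above the rest and replicate 2 close to it (log2 fold change 1.99 ± 0.52, adjusted p = 0.00334). At D7 Isg15 ran at 3.59 at the lowest, 8.41 at the median and 25.2 at the highest FPKM and at D14 at 1.48 at the lowest, 8.17 at the median and 24.5 at the highest. Isg15 at D21 measured 4.23, 5.07, 5.21, 6.78 and 9.48 FPKM, with 2 of 5 samples above the Control range (log2 fold change 0.66 ± 0.52, adjusted p = 0.513). Mx1, a gene of the Mx family, had a D3 change of 1.24 ± 0.27 (adjusted p = 0.000609).

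Bst2 (ENSMUSG00000046718, chr8:71534255-71537456, minus strand) encodes tetherin, which holds budding viruses at the cell surface. Bst2 measured 29.1, 24.5, 25.3, 24.1 and 27.1 FPKM in Control, a narrow range, and 64.3, 50.9, 81.3, 91.1 and 149 FPKM at D3. Every D3 sample lay above the Control range, replicate 5 the highest (log2 fold change 1.62 ± 0.37, adjusted p = 0.000931). At D7 Bst2 ran at 23.3 at the lowest, 33 at the median and 106 at the highest FPKM. Replicates 4 and 5 of D7 were at 106 and 92.6 FPKM, and the other 4 were at or below 33.4. It stood at 26.1 at the lowest, 44.8 at the median and 71.7 at the highest FPKM at D14, in 2 sets of 3: replicates 1 to 3 lay within the Control range and replicates 4 to 6 above it. In the D21 samples Bst2 measured 30.6, 32.3, 27.1, 32.6 and 47.8 FPKM, 4 of 5 above the Control range.

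Guanylate-binding proteins, which attack the vacuoles of microbes and respond above all to interferon gamma, were called at D3 for Gbp2 alone of 6. Gbp2 (ENSMUSG00000028270, chr3:142620602-142638008, plus strand) measured 4.21, 4.25, 3.62, 3.36 and 3.42 FPKM in Control and 6.09, 4.35, 4.85, 5.41 and 14.7 FPKM at D3. Replicate 5 was far above the other 4 D3 samples, which lay just above the Control range (log2 fold change 0.64 ± 0.24, adjusted p = 0.031). Without replicate 5 the change was 0.37 with an adjusted p of 0.14, and the call was also lost without Control replicate 3, 4 or 5 and in 4 other settings. At D7 Gbp2 ran at 2.64 at the lowest, 4.12 at the median and 7.57 at the highest FPKM, with replicate 4 the highest, and at D14 at 2.59 at the lowest, 5.15 at the median and 6.81 at the highest FPKM. Gbp2 had D21 levels of 3.49, 3.43, 3.6, 3.76 and 2.56 FPKM, 4 of 5 samples within the Control range and replicate 5 below it.

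Gbp3 (ENSMUSG00000028268, chr3:142560026-142573209, plus strand) belongs to the same family. Gbp3 measured 2.85, 1.53, 1.77, 2.11 and 3.05 FPKM in Control and 3.89, 2.45, 2.6, 3.52 and 10.3 FPKM at D3. Replicate 5 was again far above the rest, and 3 of 5 D3 samples lay above the Control range (log2 fold change 0.64 ± 0.27, adjusted p = 0.0629). The change was past the threshold in 7 of 43 other settings, among them TPM, at 1.24, and the omission of D3 replicate 2, of D3 replicate 3 or of D21 replicate 5. Without D3 replicate 5 it was 0.34 with an adjusted p of 0.262. It ran at 2.82 at the lowest, 3.5 at the median and 5.52 at the highest FPKM at D7 and at 2.16 at the lowest, 3.96 at the median and 6.57 at the highest FPKM at D14, with 5 of 6 samples above the Control range on each day. Levels of Gbp3 at D21 were 2.36, 2.88, 2.47, 2.81 and 6.86 FPKM, with replicate 5 the highest (log2 fold change 0.40 ± 0.27, adjusted p = 0.438, or 0.17 with an adjusted p of 0.819 without replicate 5).

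Immunity-related GTPases, which act on the vacuoles of intracellular parasites, were called at D3 for Ifi47 alone of 5. Ifi47 (ENSMUSG00000078920, chr11:49076587-49096974, plus strand) measured 1.7, 0.399, 1.93, 1.02 and 1.66 FPKM in Control and 4.11, 1.58, 3.03, 3.44 and 8.49 FPKM at D3. Replicate 5 was the highest, and 4 of 5 D3 samples lay above the Control range (log2 fold change 1.05 ± 0.32, adjusted p = 0.00893). At D7 it ran at 0.774 at the lowest, 2.15 at the median and 5.33 at the highest FPKM and at D14 at 1.04 at the lowest, 2.18 at the median and 3.47 at the highest. By D21 Ifi47 measured 1.39, 1, 1.52, 1.35 and 2.14 FPKM, 4 of 5 samples within the Control range. Igtp (ENSMUSG00000078853, chr11:58199556-58207591, plus strand) measured 5.98, 7.39, 5.73, 5.18 and 7.09 FPKM in Control and 6.83, 6.62, 6.95, 5.77 and 20.6 FPKM at D3. Apart from replicate 5, the D3 samples lay within the Control range (log2 fold change 0.36 ± 0.27, adjusted p = 0.297, but 1.08 with an adjusted p of 0.00279 on the TPM scale and 0.94 with 0.00512 on the own total of reads, and 0.06 with an adjusted p of 0.863 without replicate 5). Igtp ran at 3.81 at the lowest, 8.53 at the median and 10.4 at the highest FPKM at D7 and at 5.95 at the lowest, 7.84 at the median and 13.2 at the highest FPKM at D14. On day 21 Igtp stood at 11.6, 9.55, 8.38, 11.9 and 13.2 FPKM, its highest mean of the 5 groups, and all 5 samples lay above the Control range. This difference was not called (log2 fold change 0.71 ± 0.27, unadjusted p = 0.015 and adjusted p = 0.143 in limma), but it was past the threshold with only Control and D21 in the fit, at an adjusted p of 0.0101, with sample quality weights, at 0.0228, and without the 9 samples nearest another group, at 0.0489.

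The p200 genes, sensors and binders of DNA that sit side by side on chromosome 1, rose at D3 in 7 of 7. Of these, Ifi205, Ifi206 and Ifi209 reached 0.5 FPKM in no uninjured sample and were let in by injured muscle alone, and Ifi203 alone reached it in all 5. Ifi204 (ENSMUSG00000073489, chr1:173747293-173766943, minus strand) is a DNA sensor of macrophages among other cells. Ifi204 measured 0.401, 0.555, 0.574, 0.388 and 0.537 FPKM in Control and 5.52, 3.47, 5.88, 6.54 and 7.21 FPKM at D3. The lowest D3 sample was several times the highest Control sample (log2 fold change 2.15 ± 0.28, adjusted p = 2.80e-06). At D7 Ifi204 ran at 1.13 at the lowest, 2.44 at the median and 7.59 at the highest FPKM, with replicates 5 and 4 the highest (log2 fold change 1.39 ± 0.27, adjusted p = 0.000669), and at D14 at 0.643 at the lowest, 1.68 at the median and 2.63 at the highest FPKM. Ifi204 at D21 measured 1.21, 2.05, 1.09, 0.972 and 0.931 FPKM. All 22 injured samples lay above all Control samples.

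Ifi207 (ENSMUSG00000073490, chr1:173723427-173741747, minus strand) had the highest mean of its family. Ifi207 measured 0.592, 0.713, 0.349, 0.665 and 0.539 FPKM in Control and 6.05, 2.61, 5.7, 7.27 and 3.17 FPKM at D3. Here replicate 5 was among the lower D3 samples, and all 5 lay above the Control range (log2 fold change 1.86 ± 0.30, adjusted p = 3.32e-05). It ran at 1.83 at the lowest, 2.04 at the median and 9.43 at the highest FPKM at D7, with replicate 5 the highest, and at 0.951 at the lowest, 1.98 at the median and 3.26 at the highest FPKM at D14. In the D21 samples Ifi207 measured 1.04, 2.48, 0.749, 2.22 and 1.73 FPKM, all above the Control range (log2 fold change 0.71 ± 0.30, adjusted p = 0.187, and 0.0372 with only Control and D21 in the fit). Ifi211 had a D3 change of 1.92 ± 0.28 (adjusted p = 1.29e-05), and 72.8% of its 50-base stretches also occur in another gene, most often Ifi205.

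Of 4 other Ifi genes, Ifi27 and Ifi27l2a rose at D3 and Ifi35 and Ifi44 were not called. Ifi27l2a (ENSMUSG00000079017, chr12:103442167-103443680, minus strand) encodes a small hydrophobic protein that interferon induces, and it had the widest D3 change of all members. Ifi27l2a measured 10.1, 9.29, 6.63, 5.44 and 9.15 FPKM in Control and 70.3, 82, 149, 147 and 95.6 FPKM at D3. Replicates 3 and 4 were the highest D3 samples, and the lowest was several times the highest Control sample (log2 fold change 3.56 ± 0.48, adjusted p = 4.19e-06). At D7 it ran at 12 at the lowest, 84.9 at the median and 149 at the highest FPKM, with replicates 1 and 2 far below the other 4 (log2 fold change 2.70 ± 0.46, adjusted p = 0.000223). At D14 it ran at 16.8 at the lowest, 34.6 at the median and 77.9 at the highest FPKM (log2 fold change 2.02 ± 0.46, adjusted p = 0.00375), and the D21 samples measured 21.8, 21.6, 19.1, 11.8 and 34.4 FPKM. All 22 injured samples lay above all Control samples, though the D21 change was not called (log2 fold change 1.27 ± 0.48, adjusted p = 0.135, and 0.0109 with only Control and D21 in the fit or 0.0237 with sample quality weights). The D14 call was lost with voom weights on recovered reads, at an adjusted p of 0.0522.

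The last 4 members match by name and are not known as interferon targets: Irf2bp1, Irf2bp2 and Irf2bpl, named for a corepressor that binds Irf2, and Isg20l2, a nuclease of the nucleolus. Irf2bp1 (ENSMUSG00000044030, chr7:19004044-19006777, plus strand) measured 11, 8.33, 10.4, 10.2 and 13.4 FPKM in Control and 9.38, 10.4, 9.87, 8.99 and 9.78 FPKM at D3. All 5 D3 samples lay within the Control range (log2 fold change -0.11 ± 0.15, adjusted p = 0.586, with a change of sign on the TPM scale, to 0.64, and on the own total of reads, to 0.49, and with values of -0.19 without Control replicate 2 and -0.036 without Control replicate 5). At D7 it ran at 9.47 at the lowest, 10.4 at the median and 14.2 at the highest FPKM and at D14 at 8.23 at the lowest, 9.56 at the median and 10.6 at the highest. Irf2bp1 had D21 levels of 11.1, 9.48, 9.82, 12.1 and 5.18 FPKM, with replicate 5 below the rest (log2 fold change -0.18 ± 0.15, adjusted p = 0.564, near 0 on those 2 scales and without D21 replicate 5). Isg20l2 (ENSMUSG00000048039, chr3:87930314-87940686, plus strand) measured 3.79, 3.53, 3.42, 4.41 and 3.47 FPKM in Control and 5.1, 4.71, 4.85, 4.96 and 5.41 FPKM at D3. The D3 samples all lay above the Control range by a narrow margin (log2 fold change 0.35 ± 0.14, adjusted p = 0.0423), and the call was lost in 13 of 43 other settings, among them the omission of any single D3 replicate or of any 1 of Control replicates 1, 2, 3 and 5. Isg20l2 ran at 3.52 at the lowest, 4.82 at the median and 6.13 at the highest FPKM at D7 and at 3.73 at the lowest, 4.82 at the median and 6.53 at the highest FPKM at D14. Levels of Isg20l2 at D21 were 3.3, 3.82, 3.48, 2.81 and 4.95 FPKM, around the Control values. Without these 4 genes the D3 count was 35 of 55.

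At D7, 19 of the 59 members were called higher, against 15% of all tested genes, and 0 were called lower, against 14.4%. The calls took in 5 of 6 IFITM genes and 5 of 7 p200 genes, and the others were Irf8, Irf9, Ifit2, Oas1a, Oasl1, Mx1, Irgm1, Ifi27l2a and Irf2bp2. The members' median log2 fold change was 0.53, and that of all tested genes was 0.03. Among the 39 members that uninjured muscle alone would have let in, 9 (23.1%) were called higher, nearer the share of all tested genes, and among the other 20 it was 10. The median log2 fold change was 0.33 over those 39 and 0.71 over the other 20. Macrophage and monocyte markers were called higher at D7 in 7 of 9. The D7 count was 45 higher on the TPM scale and 41 on the own total of reads, where the medians of all genes had moved as given above and 43.1% and 36.6% of all tested genes were called higher, and it was 30 with samples blocked by the letter in their label, against 17.1%. Without D3 replicate 5 and D7 replicate 5 it was 15 higher (against 12.4% of all tested genes) and 1 lower, and without the 9 samples nearest another group it was 18 higher (against 19%) and 0 lower.

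At D14, 10 members were called higher, against 9.02% of all tested genes, and 1 lower, against 11.3%. The 10 were Irf9, Ifitm2, Ifitm3, Ifitm6, Irgm1, Ifi203, Ifi204, Ifi207, Ifi211 and Ifi27l2a, and the 1 was Irf5. None of the Oas genes, the IFIT genes or the effectors with Isg15 was called on this day in limma, though 1 of 7, 1 of 4 and 2 of 6 had an unadjusted p under 0.05, against 34.7% of all tested genes. The median log2 fold change was 0.37 over the members and 0.02 over all tested genes. The 10 were 6 (15.4%) of the 39 members that uninjured muscle alone would have let in and 4 of the other 20. This count moved with single libraries: it was 5, 6, 5 and 4 of 59 without Control replicates 1, 3, 4 and 5 in turn, and 7, 17, 4 and 4 without D14 replicates 1, 3, 4 and 5. The share of all tested genes called higher moved too. It was 6.84%, 7.16%, 6.67% and 6.58% without those Control samples and 7.66%, 9.92%, 6.61% and 5.71% without those D14 samples. The count was 17 without D3 replicate 5 and D7 replicate 5 (16 higher, against 11.6% of all tested genes), 22 without the 9 samples nearest another group (21 higher, against 16.3%), and 4 to 21 over the other alternatives.

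At D21, 2 members were called, Ifitm3 and Ifitm6, both higher, against 1.74% of all tested genes called higher, and 0 were called lower, against 1.69%. With 2 of 59 (3.39%) the share was close to that of all tested genes. In limma 10 of 59 (16.9%) had an unadjusted p under 0.05, below the 19.8% of all tested genes. The members' median log2 fold change was 0.15, and that of all tested genes was 0.01. The count was 1 without Control replicate 1, 2, 3 or 5 or without D21 replicate 1, 2 or 3. In those fits 0.718% to 1.73% of all tested genes were called higher. It was 8 higher and 1 lower with sample quality weights (against 8.17% and 8.71% of all tested genes), 9 higher and 0 lower with only Control and D21 in the fit (against 5.17% and 4.92%) and 5 higher and 1 lower without the 9 samples nearest another group (against 3.75% and 2.75%).

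A member called at one day and not at another is not shown to differ between them, so the days were also compared directly. From D3 to D21, 29 members were called lower, against 16.2% of all tested genes, and 0 were called higher, against 9.23%. Among the 39 members that reached the level in every uninjured sample, 16 (41.0%) were called lower, and among the other 20 it was 13 (65.0%). Without D3 replicate 5 the count was 21 lower and 3 higher (against 17.4% and 10.4% of all tested genes), without D3 replicate 5 and D7 replicate 5 it was 23 lower and 3 higher (against 18.5% and 11.4%), and without the 9 samples nearest another group it was 26 lower and 3 higher (against 18.8% and 12.6%). The calls took in 6 of 7 Oas genes, 6 of 7 p200 genes, 4 of 6 of the Isg15 system and effectors, 4 of 7 regulatory factors and 3 of 4 IFIT genes. They took in 1 of 6 IFITM genes, 1 of 6 guanylate-binding proteins, 1 of 5 immunity-related GTPases and 1 of 3 signal transducers and sensors. Of the other Ifi genes it was 1 of 4, and of the genes matched by name only 1 of 4. No difference between roles was tested. Ifi27l2a changed by -2.28 ± 0.48 (adjusted p = 0.00112), Oas1a by -2.02 ± 0.37 (adjusted p = 0.000373), Irf8 by -1.75 ± 0.29 (adjusted p = 0.000137) and Irf7 by -1.74 ± 0.42 (adjusted p = 0.00348). Irf5, which had not been called at D3, changed by -1.31 ± 0.40 (adjusted p = 0.0185), a call lost without D21 replicate 2 (adjusted p = 0.0506) or D21 replicate 4 (adjusted p = 0.0558). All 9 macrophage and monocyte markers were lower at D21 than at D3.

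Between D3 and D7 limma called 0 members in either direction, against 0.0478% of all tested genes called lower and 0% called higher. At an unadjusted p under 0.05 it was 14 of the 59 (23.7%), against 15.7% of all tested genes, and the members' median log2 fold change was -0.32, against -0.01 over all tested genes. The median was -0.20 over the 39 members that reached the level in every uninjured sample and -0.49 over the other 20. D7 replicate 5 lay nearest D3, and without it 15 members were called, all lower, against 10.1% of all tested genes called lower. Without it and D3 replicate 5 the count was 11, all lower, against 11.9%. It was 1, lower, without D3 replicate 2 (against 0.082%) or D3 replicate 5 (against 4.43%). It was 4 lower and 1 higher without the 9 samples nearest another group (against 10.2% and 3.77% of all tested genes) and 7 lower with sample quality weights (against 10.1%), near or below the share of all tested genes. The count between these days depends on which samples are kept.

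Highest mean levels by group put 44 of the 59 members at D3 (against 32.1% of all tested genes), 6 at D7, 6 at D14, 2 at D21 (Gbp4 and Igtp) and 1 in Control (Irf2). These peaks were not split by how members met the level, which 20 of the 59 did not reach in every uninjured sample. The choice itself therefore bears on the contrast with all tested genes. Over all 4 days 39 members (66.1%, against 27% of all tested genes) were called higher at 1 day or more, 19 of them (32.2% of members, against 9.39%) at D3 with no call at another day, and 19 members (32.2%, against 50.4%) were never called against Control. These shares were not split that way either. At D3 alone, 15 (75.0%) of those 20 members were called higher, and 21 (53.8%) of the 39 that reached the level in every uninjured sample. The never-called members took in 5 of 6 guanylate-binding proteins (all but Gbp2), Igtp, Irgm2, Iigp1, Ifih1, Irf2, Irf3, Ifit3b, Oas1c, Rsad2, Usp18, Ifi35, Ifi44, Irf2bp1 and Irf2bpl.

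Samples of D3, D7 and D14 were spread widely. The median over the 59 members of log2(FPKM + 1) minus the Control mean ran from -0.05 to 0.04 in Control, from 0.26 to 1.23 at D3, from 0.14 to 0.85 at D7, from -0.01 to 0.68 at D14 and from 0.04 to 0.38 at D21, while for all tested genes it stayed between -0.02 and 0.04. D3 replicate 5 had the highest median of the 27 samples (1.23), and D3 replicate 2 (0.26) the lowest of its group. At D7 replicates 4 and 5 had 0.85 and 0.80, and the other 4 had 0.18, 0.14, 0.22 and 0.45.

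The high samples were not high in the same roles. For immunity-related GTPases the sample median was 1.58 in D3 replicate 5 and from -0.025 to 0.138 in the other 4 D3 samples, and for guanylate-binding proteins it was 0.75 against -0.23 to 0.12. For p200 genes D3 replicate 5 had 1.46, below 1.75 in replicate 1, 1.73 in replicate 3 and 1.61 in replicate 4. D7 replicate 5 had the highest p200 median of all samples (2.25) and -0.06 for guanylate-binding proteins. Marker sums differed between the same samples. Macrophage and monocyte markers summed to 327 FPKM in D3 replicate 5 and to 1435, 1009, 1995 and 2174 FPKM in D3 replicates 1 to 4. NK cell markers summed to 10.6 FPKM in D3 replicate 5 and 11.3 FPKM in D7 replicate 4, and to at most 3.87 FPKM in the other 25 samples. T cell markers summed to 3.83 and 2.99 FPKM in those samples and to at most 2.22 FPKM elsewhere. Fibro-adipogenic markers were also highest in D7 replicate 4 (733 FPKM) and D3 replicate 5 (599 FPKM), with at most 472 FPKM in the other 25 samples. Endothelial markers summed to 101 FPKM in D3 replicate 5 and to 46.2 to 58.7 FPKM in the other 4 D3 samples. In D7 replicate 5 the macrophage and monocyte sum was 2047 FPKM and the neutrophil sum 99.6 FPKM. These samples were singled out after their values were seen, and the part of these cells in the levels was not tested.

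**Figure D3:**
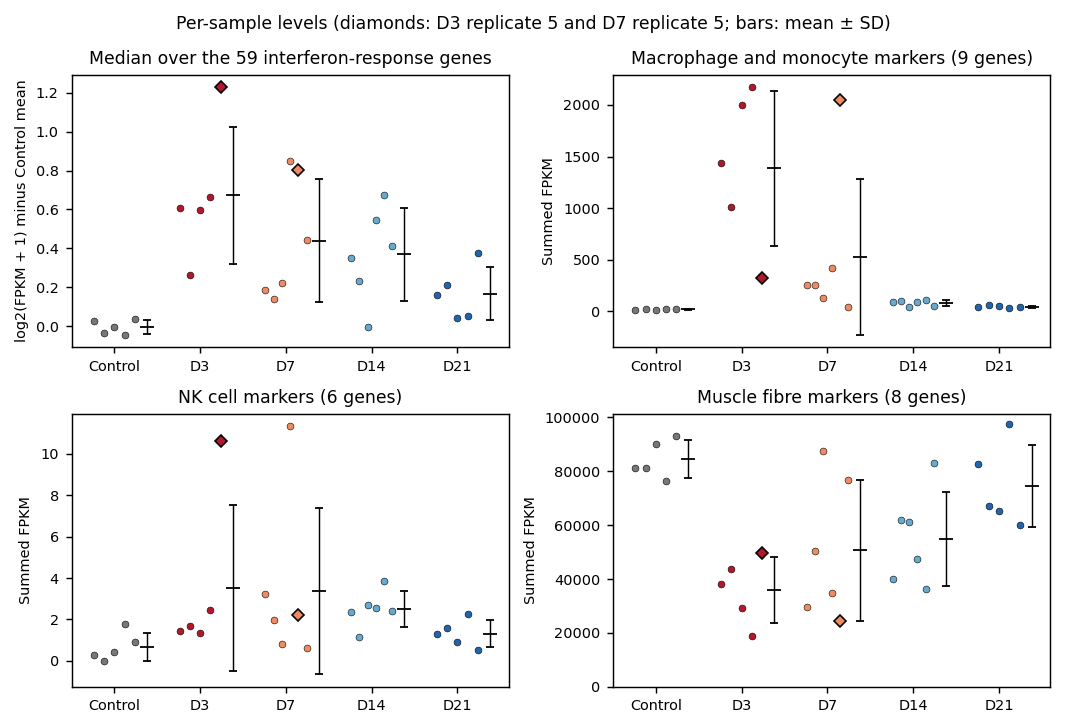
Per-sample values by group (1 point per sample, diamonds for replicate 5 of D3 and of D7, bars for the mean ± SD): the median over the 59 members of log2(FPKM + 1) minus the Control mean, and summed FPKM of macrophage and monocyte, NK cell and muscle fibre markers. D3 replicate 5 has the highest member median and the lowest macrophage sum of the D3 samples.

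What the members share beyond their names can be read from their promoters. RefSeq promoters (GRCm38.p6, 250 bases before to 50 after the start) were held for 49 of the 59, and were searched on both strands for an ISRE core, GAAANNGAAA, and for a GAS, TTCNNNGAA. The ISRE core was in the promoters of 27 of 49 members (55.1%), against 3.99% of the 27025 genes with a promoter and 3.72% of the 10083 tested genes with one. The GAS was in those of 15 members (30.6%), against 9.55% and 7.97%. By role the ISRE core was found in 4 of 4 guanylate-binding proteins, 5 of 6 p200 genes, 4 of 6 Oas genes, 3 of 4 IFIT genes, 1 of 7 regulatory factors and 0 of the 4 genes matched by name only. Members called higher at D3 held it in 16 of 30 (53.3%), and members not called in 11 of 19 (57.9%). A match is a description of letters, and no binding was measured in these samples.

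The Isg15 promoter carries 3 ISRE cores that overlap in one run, shown here as the 250 bases before its start, with the letters of the cores in capitals.
Isg15, chr4:156200819-156201068, minus strand: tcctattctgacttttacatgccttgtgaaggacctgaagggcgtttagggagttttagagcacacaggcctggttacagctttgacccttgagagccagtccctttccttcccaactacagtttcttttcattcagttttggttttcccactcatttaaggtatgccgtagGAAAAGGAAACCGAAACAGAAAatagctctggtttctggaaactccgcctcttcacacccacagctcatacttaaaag

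Windows around single matches are shown for members of different roles and different courses after injury, with 1 ISRE core in capitals. The Oas1a promoter holds 1 more core, which overlaps the one in capitals.
Stat2, chr10:128270262-128270299, plus strand: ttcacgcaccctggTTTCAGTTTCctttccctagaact
Oas1a, chr5:120907516-120907553, minus strand: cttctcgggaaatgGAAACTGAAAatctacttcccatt
Gbp2, chr3:142620590-142620627, plus strand: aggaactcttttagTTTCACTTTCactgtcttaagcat
Igtp, chr11:58199508-58199545, plus strand: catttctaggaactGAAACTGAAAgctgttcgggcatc
Ifi207, chr1:173741827-173741864, minus strand: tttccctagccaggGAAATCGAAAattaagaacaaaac
Ifi211, chr1:173913060-173913097, minus strand: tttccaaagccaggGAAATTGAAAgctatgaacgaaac

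A GAS close to an ISRE core is shown for a pair of neighboring immunity-related GTPases on chromosome 11 and for Bst2, whose GAS shares letters with an ISRE core.
Igtp, chr11:58199497-58199533, plus strand: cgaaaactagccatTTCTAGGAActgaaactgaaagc
Irgm2, chr11:58214888-58214924, plus strand: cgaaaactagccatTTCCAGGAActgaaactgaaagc
Bst2, chr8:71537586-71537622, minus strand: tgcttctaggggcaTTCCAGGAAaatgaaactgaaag
Igtp and Irgm2 were not called on any day, and Bst2 was called at D3.

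Related members also share transcript sequence, so their levels are not fully separate measurements. Of the 59 members, 20 had more than 10% of their 50-base stretches in another gene and 14 had none. Besides the genes named above, the share was 45.7% for Oas1g, 33.7% for Ifi209 and 11.8% for Igtp (with Irgm2).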

How the data were processed

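Poly-T selected, non-directional libraries of 27 muscle samples were sequenced on a NovaSeq instrument. The authors aligned reads with HISAT2 (2.0.5), counted them with featureCounts (1.5.0-p3) and deposited FPKM values, the unit of every level here. Counted reads were recovered from FPKM and gene length, and 100% of values came out whole within 0.1 read. The 14630 genes with FPKM of at least 0.5 in 5 or more samples were tested on log2(FPKM + 1) with limma 3.58.1 (R 4.3.3, empirical Bayes with a trend, 1 fit of all 27 samples, two-sided), and p-values were adjusted by Benjamini-Hochberg within each of 6 comparisons. The fit was also run on simulated data, and the outcome is not given here. Alternatives were other pseudocounts and filters, scalings, weights, blocks and each sample left out in turn. The omission of the 9 samples nearest another group was chosen after seeing the data.

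Members and lists were chosen with earlier results of these data known. Values of every Control, D3 and D21 sample are given for 21 members: in each role, the one with the highest mean FPKM and those with the largest change at D3 and at D21, and all members called at D21. Of other pathway genes, the one with the largest D3 change in each of 6 lists is named, with Ifnb1 and Ifng. Other lists were marker genes of 10 cell types. Precision is limited by the number of samples and, for low genes, by their counted reads. Gene coordinates are those of GRCm38. Results of 1 member and 1 promoter sequence are not reported here.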

Additional observations from a re-analysis of the deposited data

Results flagged for a closer look

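In groups of 5 or 6 samples, a value stood apart when its gap to the nearest other sample, divided by the range of the group, was above Dixon's limit at the 95% level. Chance alone puts about 1 in 20 groups past these limits. Of 139 pairs of a named gene and a group, 18 had such a value. Over all members it was 38 of 295 pairs, with 12 of the 38 values in D3 replicate 5, 6 in D21 replicate 5 and 5 in D7 replicate 5.

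In D3 replicate 5 the values apart, all above the other 4 samples, were those of Isg15 at 43.0 FPKM, Gbp2 at 14.7, Gbp3 at 10.3 and Igtp at 20.6. D21 replicate 5 stood apart with Bst2 at 47.8 FPKM and Gbp3 at 6.86, above the rest of its group, and with Gbp2 at 2.56, below it. D7 replicate 5 stood above its group with Ifi207 at 9.43 FPKM, Il10rb at 10.1, Ptpn6 at 22.6 and Slfn2 at 30.6, and D7 replicate 4 with Gbp2 at 7.57. Single values apart were Ifit3b at 3.59 FPKM in Control replicate 5, Oasl1 at 0.0223 in Control replicate 2, Ifi204 at 2.05 in D21 replicate 2 and Il10rb at 6.6 in D14 replicate 5. Ifng stood apart at 0.206 FPKM in D7 replicate 2 and at 0.495 in D14 replicate 5, where the other samples were listed at 0. In such a group the gap equals the range, so any single value above 0 would be past the limit. The cause of these values was not tested.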

How the results depend on the processing

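The count of called members in each comparison and each of the fold changes named, apart from that of Cxcl9, was recomputed under 43 alternatives. At D3 (36 called) the count stayed between 28 and 52, and from D3 to D21 (29 called) between 23 and 42, so neither moved by over 1.5 times. The highest counts, 52 and 42, were on the TPM scale, where the share of all tested genes called higher at D3 was 46.9% (23.4% as deposited) and that called lower from D3 to D21 was 33.1% (16.2% as deposited). Against the 19 called at D7 it was 45 on the TPM scale, 41 on the own total of reads and 30 with samples blocked by letter. The shares of all tested genes called higher there were 43.1%, 36.6% and 17.1%. Against the 11 at D14 it was 4 with no filter, 7 with quantile normalization or voom weights and 19 on the own total of reads. The shares of all tested genes called higher there were 3.09%, 6.88%, 7.96% and 15.6%. It was 17 with sample quality weights (13.9% called higher) or without D3 replicate 5 and D7 replicate 5 (11.6%). The count was 21 with only the 2 groups in the fit (12.8%) and 22 without the 9 samples nearest another group (16.3%). At most 1 member of each count was lower. Against the 2 at D21 it was 1 with no filter, quantile normalization, TPM, the own total of reads or voom weights. There 0.287% to 1.05% of all tested genes were called higher. It was 9 with quality weights (8.17%) or only the 2 groups in the fit (5.17%), and 6 without the 9 samples (3.75%). Again at most 1 member of each count was lower. Against the 0 from D3 to D7 it was 7 with quality weights, 11 without D3 replicate 5 and D7 replicate 5, and 5 without the 9 samples. The shares of all tested genes called lower there were 10.1%, 11.9% and 10.2%. Over the 27 fits without a single sample the count ran from 30 to 39 at D3, 13 to 27 at D7, 4 to 17 at D14, 1 to 3 at D21, 0 to 15 from D3 to D7 and 23 to 31 from D3 to D21. The share of all tested genes called higher ran from 19.9% to 24.1% at D3, 11.7% to 18.5% at D7, 5.71% to 10.8% at D14 and 0.718% to 2.35% at D21. The share called lower ran from 0.0137% to 10.1% from D3 to D7 and from 11.8% to 17.5% from D3 to D21.

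With the replicate block the counts were 38, 27, 15 and 2 at D3, D7, D14 and D21, all higher, against 24.2%, 17.1%, 11.2% and 2.67% of all tested genes. From D3 to D7 the count was 0, against 0.0137% of all tested genes called lower. From D3 to D21 it was 33, all lower, against 17%. The replicate number is not known to pair samples of different groups: over 51 pairs with the same number the median correlation of residuals was -0.003.

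Fold changes that turned sign were not called in any setting. Ifit3b at D3 turned to -0.12 with quantile normalization, to -0.11 without D3 replicate 5 and D7 replicate 5, without D3 replicate 5 and without the 9 samples, to -0.0122 without Control replicate 2 and to -0.0545 without D3 replicate 1 (-0.108 to 0.214 over all single omissions). Irf2bp1 turned at D3 to 0.64 on the TPM scale and 0.49 on the own total of reads, and at D21 to 0.00959 and 0.00481 on these scales, 0.00585 without D21 replicate 5 (-0.267 to 0.00585 over all single omissions) and 0.0394 without the 9 samples. With TPM and the own total of reads all genes move together. There the median of all tested genes was 0.507 and 0.404 at D3 and 0.116 and 0.117 at D21, so a turn of sign alone decides nothing. Irf5 at D3 turned to -0.0069 without Control replicate 2 (-0.0069 to 0.331 over all single omissions). The cause of these changes was not tested.

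Depth limits the lowest members, which rest on few counted reads in Control.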

Other observations

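Cxcl9, a chemokine gene that answers above all to interferon gamma, was looked at after the values of the guanylate-binding proteins had been seen. It measured 1.49, 0.732, 1.19, 1.21 and 0.861 FPKM in Control and 1.86, 0.264, 1.18, 1.5 and 16.5 FPKM at D3, so that D3 replicate 5, the sample with the highest Gbp2, Gbp3 and Igtp and the highest NK and T cell marker sums of its group, also had the highest Cxcl9. At D7 replicate 4 stood at 7.68 FPKM, and the other 5 samples at or below 1.18. Ifng in these 2 samples was at 0.399 and 0 FPKM. Over the group limma did not call Cxcl9 at D3 (log2 fold change 0.63 ± 0.49, adjusted p = 0.318). The change without D3 replicate 5 is not given, and the other D3 samples stood at or below 1.86 FPKM. Whether these levels share a cause was not tested.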
